A study of Homo sapiens with 6 samples.

Results

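The genes described here are 52 genes of mitosis, the kinetochore and the spindle, out of 20503 genes that could be named on the array. Each was represented by 1 probe, chosen as the brightest over the 6 arrays among those whose transcript accession belongs to the gene. All 52 probes were well above background on all 6 arrays, none was saturated, and all 52 entered the test. The arrays measured total RNA of A673, an Ewing sarcoma cell line, that carries the tetracycline repressor (A673/TR). The control cells, A673/TR/empty, were infected with an empty lentiviral vector, and the A673/TR/LOX-PP cells with the same doxycycline-inducible vector holding the propeptide of lysyl oxidase (LOX-PP), the part of the secreted precursor that is cut off to release the active enzyme. The labels give 1 µM doxycycline for 72 h on every sample, the controls included, whereas the study's methods give the dose by weight in other experiments. The methods describe 3 separate experiments with both kinds of cells, and do not say which arrays share an experiment. They say that stable clones were selected and the best expressing ones taken further, and do not name the clone used for the arrays. The comparison asks which genes differ between the LOX-PP and the empty cells. No array holds LOX-PP cells without doxycycline, so an effect of the propeptide and a difference between the infected lines cannot be told apart.

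Before the mitosis genes, the labels were set against the arrays. The LOX probe had log2 signals of -0.09, 0.36 and 0.11 on the empty arrays, against -0.12, -0.68 and -1.29 with LOX-PP, in replicate order, and was not higher in the cells meant to carry the construct (adjusted p = 0.216). Where this probe lies relative to the propeptide is not given in the sources used here, so it does not check the construct, and the direction of every difference rests on the labels. All 9 Ewing sarcoma markers looked at, NKX2-2 and NR0B1 among them, were well above background on all 6 arrays. Of 11 markers of leukocytes, epithelium, endothelium and muscle, CDH1 and KRT5 were above background on no array, 3 on some arrays and 6 on all. Log2 signals of the 11 lay between -8.08 and -1.0 over the 6 arrays. Only 8 of them entered the test, and none passed it. The smallest adjusted p was 0.0953, for PECAM1, which was higher in LOX-PP. LOX-PP replicate 1 was hybridised on a slide of its own and scanned on another day than the other 5 arrays, which shared a slide and a scan day. The share of spots well above background ran from 56.9% to 74.8% and overlapped between the groups.

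Mitosis separates the copied chromosomes. Each chromosome carries a kinetochore, a layered protein assembly built on centromeric chromatin that contains the histone CENPA, and microtubules of the spindle attach to its outer layer. A checkpoint holds back the anaphase-promoting complex until every kinetochore is attached, after which securin and cyclin B are destroyed and separase opens the cohesin rings. Most of these genes are transcribed late in the cell cycle, and the transcript level of a culture is widely used as a measure of its dividing cells. In bulk RNA, fewer dividing cells and less of a transcript per cell cannot be told apart.

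In the LOX-PP cells KIF18A, a kinesin that limits chromosome movements at the metaphase plate, was the only one of the 52 genes to pass the test. It was lower, at 0.405 times its level in the empty cells once the median difference of all probes was taken off. No mitosis gene was higher past the threshold. Relative to the median of all tested probes, 45 of 52 genes (86.5%) had a negative difference. The median of the 52 was -0.24 and the range -1.31 to 0.61 on the log2 scale. Against probes of similar mean signal, a comparison chosen after the data had been seen, 34 of 52 genes (65.4%) were lower. Under quantile normalisation 33 of 52 lay below the median of all tested probes.

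Throughout, a level is the log2 of the processed spot signal over the 75th percentile of its array, and a difference is LOX-PP minus empty on that scale, less the median difference of all tested probes, which was 0.13. Adjusted p is from limma, with Benjamini-Hochberg adjustment over 32609 probes, for the difference before that median was taken off. The 95% intervals are those of limma moved by the same median, which was taken as fixed. An interval can therefore leave out 0 where even the unadjusted p is not under 0.05. Of all tested probes, 5.67% were called at adjusted p under 0.05, 3.31% higher and 2.36% lower in LOX-PP. Of the mitosis genes 1.92% were called, all of it lower. At an unadjusted p under 0.05 the counts were 6 of 52 genes (11.5%), against 21.3% of all probes, and 5 of these genes were lower (9.02% of all probes were). The 2 groups of arrays did not overlap for 15 genes that were lower in LOX-PP (28.8%, against 13.4% of all probes) and for 2 that were higher (3.85%, against 16.1%). Overlap was judged on the levels, before the median difference was taken off, and its share among probes of similar mean signal was not counted. A single difference over 1 log2 unit was found among the 52, or 1.92%, where 12.8% of all probes differed by as much.

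**Figure D1:**
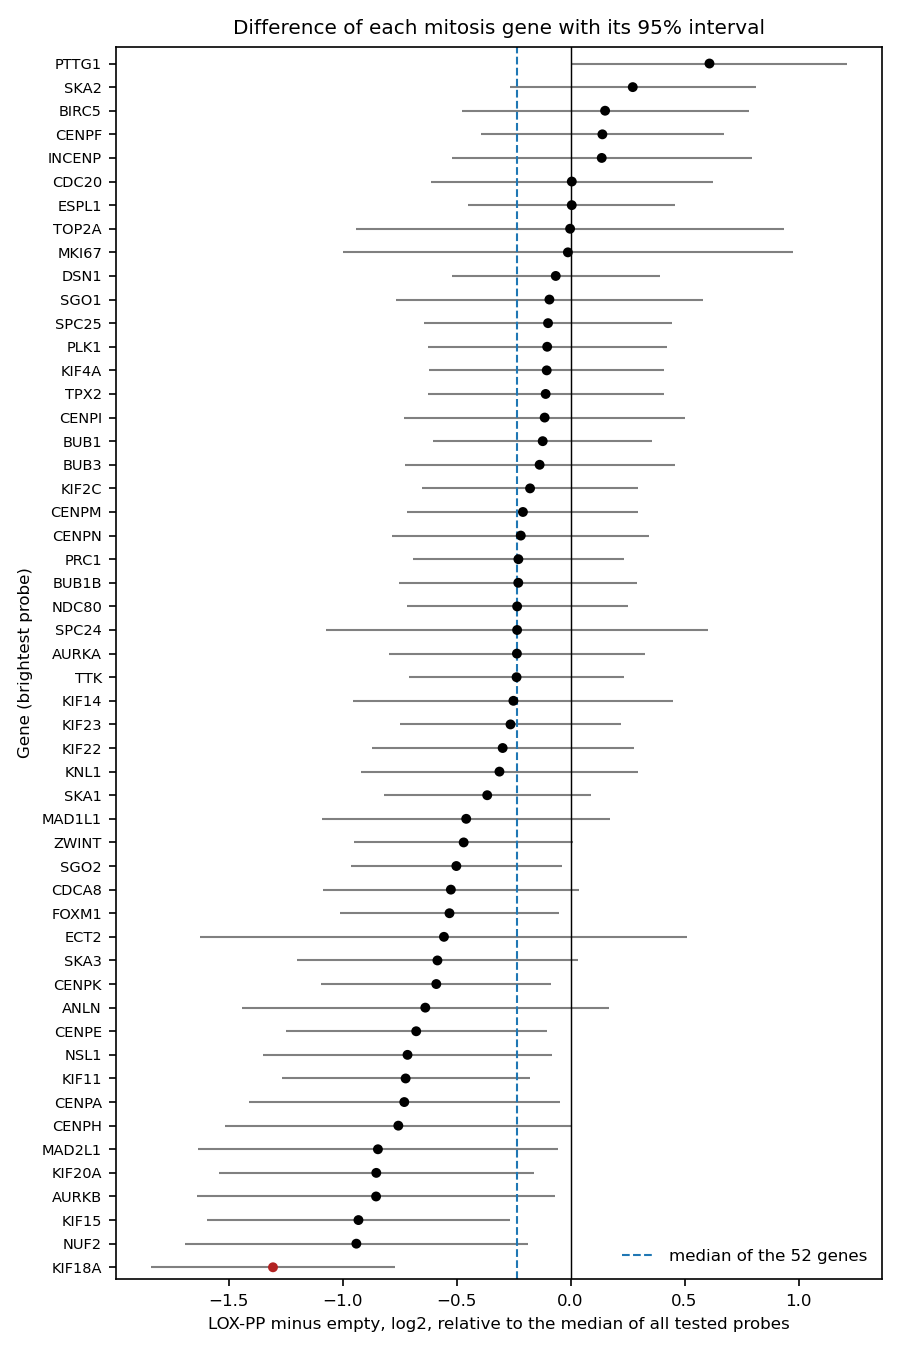
Difference between LOX-PP and empty cells for each of the 52 genes, on the log2 scale relative to the median of all tested probes. Each horizontal line is the 95% interval from limma (3 arrays per group), moved by that median. KIF18A lies lowest at -1.31 and PTTG1 highest at 0.61, and the dashed line marks the median of -0.24.

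These genes share letters in their promoters. Many cell cycle genes expressed in mitosis carry the CHR, a short element read by the DREAM complex, which holds them silent, and later by B-MYB and FOXM1, which turn them on. The RefSeq table holds a promoter for 43 of the 52 genes, from 250 bases before to 50 after the gene start. The CHR letters TTTGAA were present on either strand in 27 of the 43 (62.8%) and in 15.4% of all 27305 promoters of that length. CCAAT, the letters bound by NF-Y, were found on either strand in 30 (69.8%), against 35.7% of all promoters. TATAAA was present in 1 of them, TOP2A, against 12% of all. CHR and CCAAT shared a base in CDCA8 and MKI67. Within the mitosis genes the letters did not mark out the lower ones. The median difference was -0.25 with the CHR letters and -0.27 without, and it was -0.23 with CCAAT and -0.46 without. A match is only a run of letters and says nothing of binding.

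The windows below, 30 bases each from RefSeq on GRCh38.p14, show the CHR letters in capitals (TTTGAA, or TTCAAA where the element reads on the other strand) for 6 of the genes with the larger negative differences and for 3 genes that hardly differed or were higher. AURKB and KIF20A, whose negative differences were as large as that of MAD2L1, have no such letters in their promoters. They are read on the strand of the gene.
KIF18A, chr11:28108149-28108178, minus strand: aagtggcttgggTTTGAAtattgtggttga
NUF2, chr1:163321958-163321987, plus strand: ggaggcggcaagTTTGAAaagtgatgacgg
KIF15, chr3:44761747-44761776, plus strand: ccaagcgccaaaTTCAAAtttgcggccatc
MAD2L1, chr4:120066807-120066836, minus strand: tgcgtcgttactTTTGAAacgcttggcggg
CENPA, chr2:26786026-26786055, plus strand: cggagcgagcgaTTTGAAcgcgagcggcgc
KIF11, chr10:92593090-92593119, plus strand: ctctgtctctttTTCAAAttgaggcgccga
PLK1, chr16:23678848-23678877, plus strand: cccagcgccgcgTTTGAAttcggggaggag
MKI67, chr10:128126435-128126464, minus strand: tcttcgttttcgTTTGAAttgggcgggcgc
INCENP, chr11:62123989-62124018, plus strand: tgagccttcagtTTTGAAaatcatagtttt

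Of the 25 genes whose CHR letters lie far enough inside the promoter to be shown with their flanks, 21 had them within 50 bases of the gene start. The first base of the letters lay 10 bases before the start in KIF18A, 35 before it in KIF15 and 29 before it in PLK1, while in MAD2L1 and NUF2 it lay 25 and 17 bases after it. The same position was thus found in genes with large and with near-zero differences: PLK1 had a difference of -0.10 and INCENP of 0.14.

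**Figure D2:**
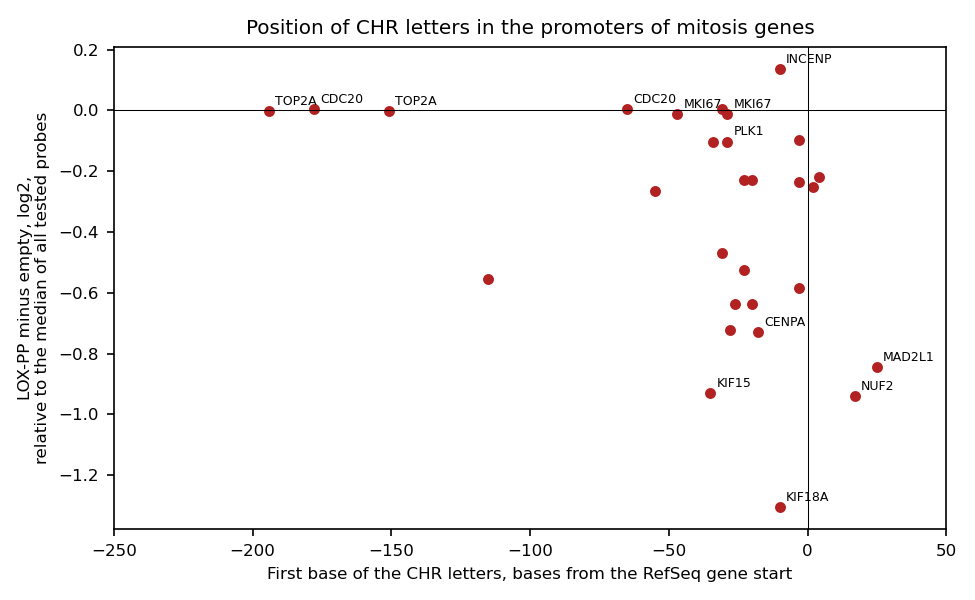
Position of the CHR letters (bases from the RefSeq gene start, negative before it) against the LOX-PP minus empty difference in log2, relative to the median of all tested probes, for the 25 genes with a window. Points cluster around the start at differences from -1.31 to 0.14, and ECT2, TOP2A and 1 of the matches of CDC20 lie farther upstream.

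Among the kinesins, the motors of the spindle, all 9 genes had negative differences, from -1.31 to -0.10 with a median of -0.30. The median was -0.54 without LOX-PP replicate 1 and -0.18 without empty replicate 2. KIF18A had log2 signals of 2.70, 2.76 and 2.38 in empty cells and of 1.24, 1.43 and 1.63 in LOX-PP cells. All 3 LOX-PP arrays thus lay below all 3 empty arrays, by more than the spread within either group (SD 0.20 and 0.19). The difference was -1.31 with a standard error of 0.23 and a 95% interval from -1.84 to -0.77 (adjusted p = 0.0315). Without LOX-PP replicate 1, the array with a separate slide and scan day, the difference was -1.25 and stayed past the threshold (adjusted p = 0.0451). With any of the other 5 arrays left out, adjusted p rose to between 0.0551 and 0.179, at differences from -1.49 to -1.17. The call was also lost with the replicate number as a block (adjusted p = 0.103), without the filter on dim probes (0.122) and by the methods' t-test (0.0645).

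KIF15, a motor that helps to hold the spindle poles apart, had signals of 2.65, 2.83 and 2.52 on the empty arrays, against 1.36, 2.01 and 2.22 with LOX-PP. The groups did not overlap, and LOX-PP replicate 1 lay lowest. Its difference was -0.93, with an interval from -1.60 to -0.27 (adjusted p = 0.162). KIF11, the motor that pushes the poles apart when the spindle forms, had 3.56, 3.26 and 3.20 in empty cells and 2.48, 2.84 and 2.90 in LOX-PP cells. Its groups did not overlap either, at a difference of -0.72 (adjusted p = 0.195). KIF20A, which carries the passenger complex to the midzone, had closely spaced empty signals of 3.31, 3.21 and 3.17 and LOX-PP signals of 1.93, 2.85 and 2.73. The difference of -0.85 (adjusted p = 0.214) was -0.60 without LOX-PP replicate 1. The remaining kinesins, KIF2C, KIF4A, KIF14, KIF22 and KIF23, differed by -0.30 to -0.10, and their groups overlapped.

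In the spindle checkpoint, all 6 genes had negative differences, with a median of -0.23, or -0.14 without LOX-PP replicate 2. MAD2L1 codes for the protein that binds CDC20 and so holds back the anaphase-promoting complex. It had signals of 3.43, 3.97 and 3.63 on the empty arrays, against 2.30, 3.27 and 3.30 with LOX-PP. The groups did not overlap, and LOX-PP replicate 1 lay lowest. The difference was -0.85 with all arrays (adjusted p = 0.271) and -0.55 without that one. BUB1, a kinase that recruits the checkpoint proteins to the kinetochore, had 3.53, 3.52 and 3.69 against 3.68, 3.42 and 3.64, and a difference of -0.12 with an interval from -0.60 to 0.36. BUB1B, the inhibitory partner of MAD2L1 in the checkpoint complex, had 3.97, 3.87 and 3.85 against 3.55, 3.79 and 4.05, at -0.23 (adjusted p = 0.829). The groups overlapped for both. BUB3, TTK and MAD1L1 had differences of -0.14, -0.24 and -0.46. A dimmer BUB3 probe of another transcript lay at -0.62, with overlapping groups (adjusted p = 0.392).

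The 6 centromere genes were all on the negative side, with a median of -0.40. Without LOX-PP replicate 2 the median was -0.28, and 4 of 6 were below the median of all probes. CENPA, the histone variant that marks the centromere, had signals of 1.95, 2.03 and 1.99 in empty cells and 0.83, 1.56 and 1.78 in LOX-PP cells. The empty arrays were nearly level and all above the LOX-PP arrays, which were spread over 0.49 (SD). The difference was -0.73 (adjusted p = 0.282), and -0.49 without LOX-PP replicate 1. CENPH, CENPI, CENPK, CENPM and CENPN, which belong to the network that sits on this chromatin throughout the cell cycle, had differences from -0.76 for CENPH to -0.11 for CENPI, and among them only CENPK did not overlap between groups. A dimmer CENPN probe of another transcript lay on the other side of the median, at 0.38, with an interval from -0.93 to 1.69, and another CENPN probe lay at -0.36.

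At the kinetochore corona the 2 genes had differences of opposite sign. CENPE, the motor that carries chromosomes to the metaphase plate, had signals of 3.59, 3.67 and 3.15 on the empty arrays, against 2.70, 3.08 and 2.98 with LOX-PP. The lowest empty array lay just above the highest LOX-PP array, and the difference was -0.68 (adjusted p = 0.249). CENPF, a large protein of the same outer layer, had 5.57, 5.77 and 5.51 against 6.12, 5.64 and 5.88, with overlapping groups. Its difference was 0.14, and it was -0.02 without LOX-PP replicate 1, so its sign rested on that array.

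The outer kinetochore, the layer that grips microtubules, had negative differences for 10 of 11 genes, with a median of -0.31. Without LOX-PP replicate 1 the median was -0.51, and without LOX-PP replicate 2 it was -0.12, with 7 of 11 genes below. NUF2 had the second lowest value of all 52 genes, with signals of 2.98, 3.57 and 3.23 in empty cells against 1.87, 2.76 and 2.71 in LOX-PP cells. The groups did not overlap, and the difference was -0.94 with an interval from -1.69 to -0.19 (adjusted p = 0.202). NDC80, which pairs with NUF2 in the same complex, had 4.74, 4.98 and 4.69 against 4.74, 4.59 and 4.75. Its groups overlapped, and the difference of -0.23 had an interval from -0.72 to 0.25. The other subunits of that complex, SPC24 and SPC25, lay at -0.23 and -0.10. SKA2, of the complex that follows shortening microtubules, was on the positive side, with 1.54, 1.83 and 1.63 in empty cells and 1.82, 2.06 and 2.32 in LOX-PP cells. Its groups overlapped by 1 array, and the difference was 0.27 (adjusted p = 0.364), against -0.37 for SKA1 and -0.58 for SKA3. KNL1 lay at -0.31 by its brightest probe and at 0.40 by a dimmer probe of the same transcript, and neither passed the test.

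The cohesion and anaphase genes were centred on the median of all probes, at 0.00, with 2 of 5 genes below it, a count that was 4 without LOX-PP replicate 1 and 1 without LOX-PP replicate 2. PTTG1, or securin, the inhibitor of separase, was the highest of the 52 genes. Its signals were 5.13, 5.52 and 5.47 on the empty arrays, against 6.45, 5.80 and 6.07 with LOX-PP, so that the groups did not overlap. The difference was 0.61, and the interval ran from 0.00 to 1.21 (adjusted p = 0.159). It was 0.40 without LOX-PP replicate 1 and 0.84 without LOX-PP replicate 2. ESPL1, separase itself, was also higher on every LOX-PP array than on any empty array, yet only by as much as the median of all probes, so that its difference was 0.00. CDC20, the activator of the anaphase-promoting complex, had 3.65, 3.27 and 3.69 against 3.72, 3.30 and 3.98. Its groups overlapped, at 0.01 with an interval from -0.61 to 0.62. SGO1 and SGO2, the shugoshins that protect centromeric cohesion, lay at -0.09 and -0.50. A dimmer SGO1 probe of another transcript lay at -0.55, with groups that did not overlap (adjusted p = 0.324).

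Among the mitotic kinases and the chromosomal passenger complex, 4 of 6 genes were below the median (6 of 6 without LOX-PP replicate 1), and members of the same complex differed in sign. AURKB, its kinase, had signals of 2.74, 2.97 and 2.83 in empty cells and 1.43, 2.36 and 2.58 in LOX-PP cells. The groups did not overlap, at a difference of -0.85 (adjusted p = 0.264), which was -0.54 without LOX-PP replicate 1. Its scaffold INCENP had 1.91, 1.57 and 1.37 against 2.21, 1.96 and 1.48, with a difference of 0.14 and an interval from -0.52 to 0.79. Its groups overlapped, and without LOX-PP replicate 1 it was at -0.06. Survivin, BIRC5, had 5.67, 5.85 and 5.86 against 6.45, 5.63 and 6.14. It differed by 0.15 (adjusted p = 0.600), with LOX-PP arrays both above and below the empty ones, and by -0.07 without LOX-PP replicate 1. CDCA8, or borealin, lay at -0.53 without overlap. These differences within the complex were not tested against each other.

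PLK1, a kinase of mitotic entry and spindle assembly, was nearly level. It had signals of 3.49, 3.02 and 3.31 on the empty arrays, against 3.29, 3.18 and 3.41 with LOX-PP. The difference was -0.10 with an interval from -0.63 to 0.42, so that levels up to 0.42 higher or 0.63 lower in LOX-PP cells lay within what 3 arrays per group could tell. AURKA, the spindle pole kinase, had 4.09, 3.98 and 4.10 against 3.58, 4.11 and 4.15. One low array, LOX-PP replicate 1, set its difference of -0.24 (adjusted p = 0.832), which was -0.09 without it.

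The 4 spindle and cytokinesis genes were all on the negative side, with a median of -0.39, or -0.16 without LOX-PP replicate 1, and the groups overlapped for each of them. PRC1, which bundles midzone microtubules, had 5.46, 5.51 and 5.52 in empty cells and 5.39, 5.30 and 5.51 in LOX-PP cells, at -0.23. The arrays of each group agreed to within 0.11 (SD), and its interval was -0.69 to 0.23. TPX2, the activator of AURKA on the spindle, had 4.61, 4.53 and 4.71 against 4.47, 4.54 and 4.90, at -0.11 (adjusted p = 0.976). ANLN and ECT2, which act at the cleavage furrow, had -0.64 and -0.56 with all arrays. Without LOX-PP replicate 1 they had -0.33 and -0.06.

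Lastly, 3 genes are used as general markers of dividing cells or as their regulators. FOXM1, the transcription factor that switches on many genes of this list, had signals of 3.94, 3.90 and 3.80 in empty cells and 3.32, 3.51 and 3.60 in LOX-PP cells. The groups did not overlap and each was tight (SD 0.07 and 0.14). Its difference was -0.53, which is 0.692 times relative to the median of all probes, with an interval from -1.01 to -0.05 (adjusted p = 0.300). MKI67, the source of the Ki-67 antigen, had 2.75, 2.79 and 2.38 against 3.69, 2.16 and 2.41. LOX-PP replicate 1 was the highest of the 6 arrays and LOX-PP replicate 2 the lowest. The difference was -0.01 with an interval from -1.0 to 0.98 (adjusted p = 0.906), and without replicate 1 it was -0.52.

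A dimmer MKI67 probe of the same transcript had signals of 1.88, 1.40 and 1.06 against 0.77, 0.62 and 0.97, with groups that did not overlap and a difference of -0.78 (adjusted p = 0.226). Another gave 1.87, 2.07 and 1.53 against 2.61, 1.20 and 1.77, at -0.09. The probes of this gene therefore disagreed on LOX-PP replicate 1. TOP2A, the topoisomerase that untangles chromosomes, went the other way on that array, with 2.50, 2.59 and 2.31 in empty cells and 1.70, 2.90 and 3.17 in LOX-PP cells. Its difference was -0.00 with all arrays (adjusted p = 0.891) and 0.41 without that one.

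**Figure D3:**
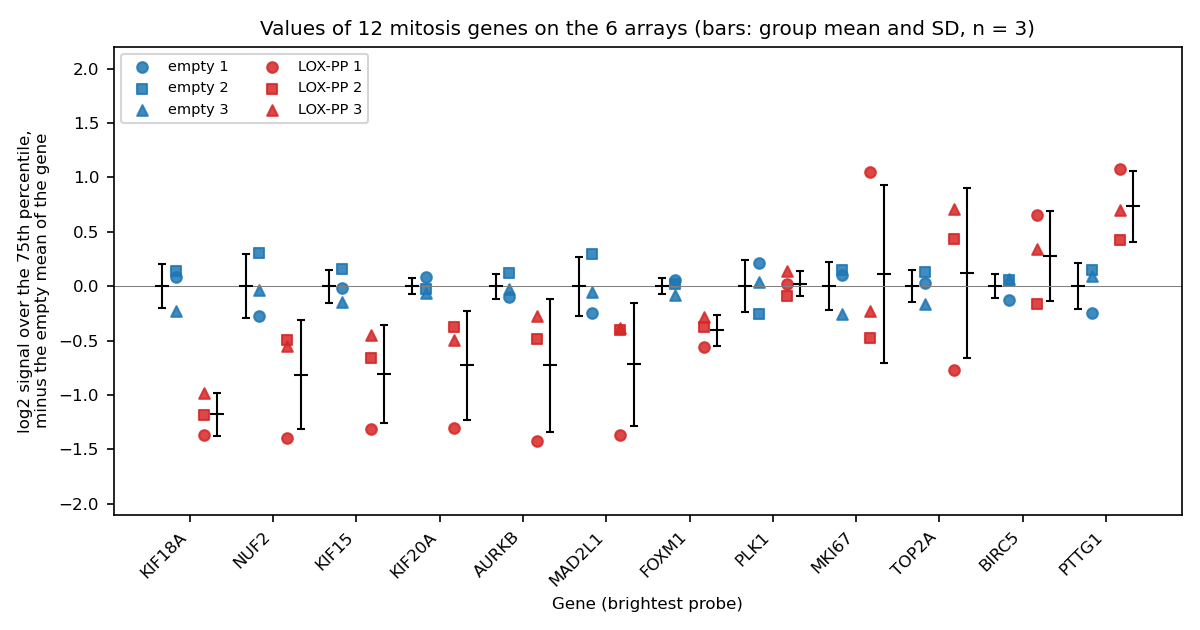
Log2 signal of 12 genes on each array over the 75th percentile, minus the gene's mean in the empty cells (blue, empty; red, LOX-PP; circles, squares and triangles, replicates 1 to 3; bars, mean and SD of 3 arrays). For KIF18A the red points lie together below the blue ones, while for NUF2, KIF15, KIF20A, AURKB and MAD2L1 LOX-PP replicate 1 lies well below the other two, and for MKI67 above them.

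The arrays did not contribute alike. Relative to all probes of the array, the median deviation of the 52 genes from their own means was 0.16, 0.31 and 0.02 on the empty arrays, against -0.05, -0.24 and 0.01 with LOX-PP. Empty replicate 3 and LOX-PP replicate 3 thus lay together, and empty replicate 2 and LOX-PP replicate 2 lay farthest apart. On that scale the highest value of a gene was on empty replicate 2 for 28 of 52 genes, against 20.7% of all probes. The lowest was on LOX-PP replicate 2 for 27, against 16.9%. LOX-PP replicate 1 held the lowest value of 17 genes and the highest of 11, where over all probes it was lowest for 25.7% and highest for 27.5%. The levels given above for single genes do not have the median deviation of the array taken off. On those levels LOX-PP replicate 1 was the lowest array for 12 of the 15 genes whose groups did not overlap downward. The median SD of the genes was 0.31 over the LOX-PP arrays and 0.15 over the empty arrays, larger in LOX-PP for 42 of 52 genes (80.8%), against 74.5% of all probes. With LOX-PP replicate 1 left out, which leaves the 5 arrays of the shared slide, 48 of 52 genes were below the median of all probes, with a median of -0.34. With LOX-PP replicate 2 left out, 34 were below it, with a median of -0.12.

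**Figure D4:**
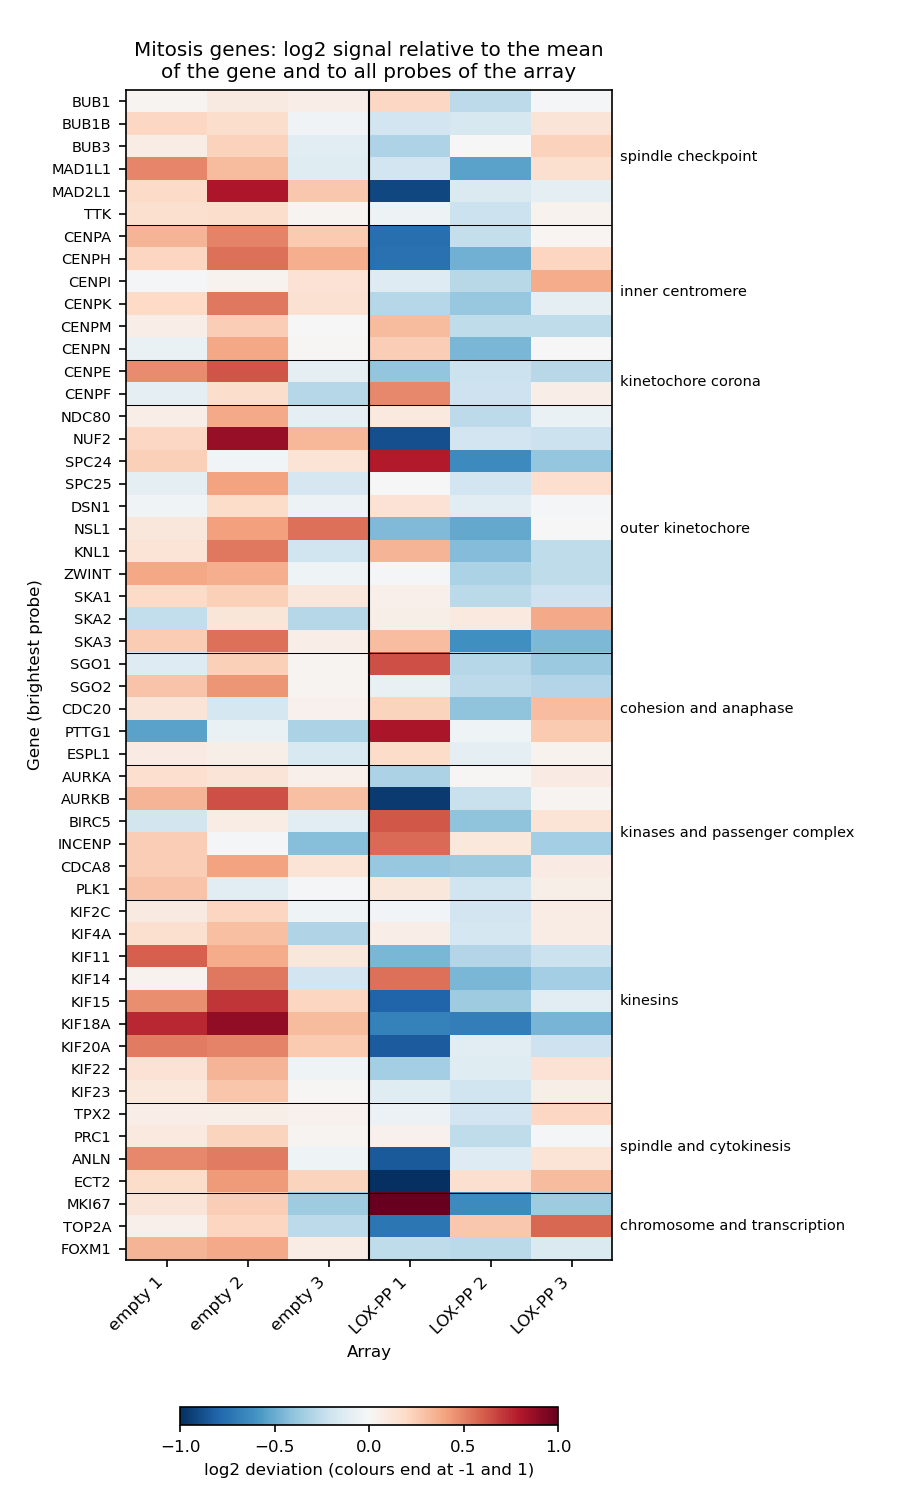
Deviation of each gene on each array from its mean over the 6 arrays, in log2 and relative to all probes of the array, with genes grouped by role (red above, blue below, colours end at -1 and 1). Empty replicate 2 is mostly red and LOX-PP replicate 2 mostly blue, and LOX-PP replicate 1 holds the strongest colours of both kinds. The group labelled inner centromere holds the centromere genes.

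The genes of this list are bright, and the difference depended on brightness across the whole array. With all tested probes split into 10 equal groups by mean signal, the median difference was 0.22 and 0.27 in the dimmest 2 groups, -0.25 in both groups 8 and 9, and -0.04 in the brightest. Of the mitosis genes 11, 18 and 19 lay in groups 8, 9 and 10, where their own medians were -0.50, -0.28 and -0.22, and the other 4 genes lay in groups 6 and 7. The very brightest probes turned upward again: those of the same signal as PTTG1 had a median difference of 0.18, so that PTTG1 stood 0.43 above its like, and those of the same signal as BIRC5 had 0.28, so that BIRC5 stood at -0.13. Set against probes within 0.25 log2 units of the same mean signal, a comparison chosen after the data had been seen, 34 of 52 genes (65.4%) were lower than their like, with a median of -0.11. Quantile normalisation, which gives all arrays the same distribution of signal, gave 33 of 52 genes below the median of all probes, with a median of -0.11. Cyclic loess gave 36 and -0.16. The direction of the list was the same under each of these, and its size was smaller. Whether the trend with brightness remained after either normalisation was not examined. By role, under quantile normalisation all 6 centromere genes were still below, with a median of -0.29, as were 7 of 9 kinesins, while of the checkpoint genes 2 of 6 were. Among the genes that changed sign, PLK1, BUB1, MKI67 and TOP2A turned to the positive side under quantile normalisation, at 0.16, 0.17, 0.25 and 0.27, and KIF18A remained called (adjusted p = 0.0284). The part of the brightness trend in the shift of the list was not tested.

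**Figure D5:**
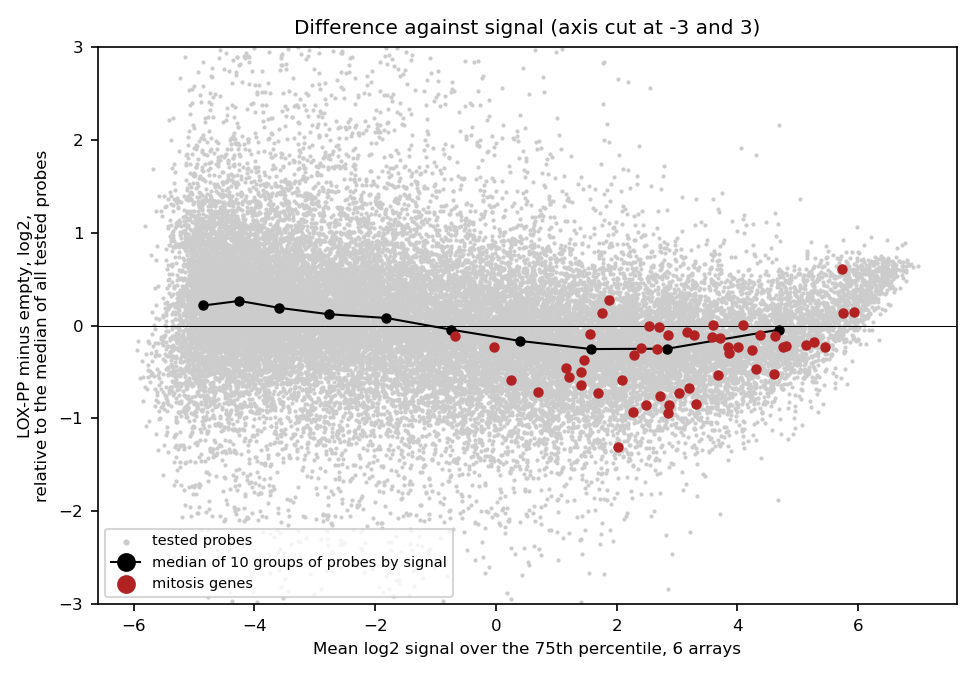
LOX-PP minus empty difference (log2, relative to the median of all tested probes) against mean log2 signal over the 75th percentile of the array, for all tested probes (grey), the medians of 10 equal groups of them by signal (black line) and the 52 mitosis genes (red). The black line falls from 0.27 among dim probes to -0.25 among bright ones, and nearly all red points lie in the brighter part of the plot.

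Other genes of mitosis were taken from a list of condensin, cohesin, anaphase-promoting complex, kinetochore, spindle, cytokinesis and mitotic entry genes. All 111 with a probe were tested. Of these, 3 were called lower and none higher, or 2.70%, against 5.67% of all probes in either direction and 2.36% lower. At an unadjusted p under 0.05 there were 23 (20.7%, against 21.3%), 22 of them lower (9.02% of all probes were). The groups of arrays did not overlap for 50 genes that were lower (45%, against 13.4%) and for 1 that was higher (0.901%, against 16.1%). The differences of 98 genes (88.3%) were negative, with a median of -0.42. These genes were not set against probes of like signal. PDS5B, a cohesin regulator, had signals of 1.50, 1.57 and 1.24 against -0.18, 0.15 and 0.56, and fell by 1.39 (adjusted p = 0.0404). BORA, which with AURKA activates PLK1, had 1.65, 1.63 and 1.62 against 0.17, 0.66 and 0.47, and fell by 1.32 (adjusted p = 0.0273). ANAPC16, a subunit of the anaphase-promoting complex, had -0.68, -0.19 and -0.44 against -1.48, -1.58 and -1.39, and fell by 1.17 (adjusted p = 0.0436). In all 3 the groups did not overlap. The count of 3 was 2 without LOX-PP replicate 1, 1 without LOX-PP replicate 3 and 0 without any of the other 4 arrays. It was also 0 with the replicate number as a block, without the filter on dim probes and by the methods' t-test, and 4 under quantile normalisation and cyclic loess.

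NCAPH, a condensin subunit, had a difference of -1.29, larger than that of ANAPC16, but did not pass the test (adjusted p = 0.119). The largest positive differences were 0.62 for CDC27 (adjusted p = 0.0860), 0.41 for ANAPC11 and 0.38 for UBE2S, all of the anaphase-promoting complex or its ubiquitin-conjugating enzymes. By group, the median difference was -0.67 for 13 cohesin genes, -0.47 for 8 condensin genes, -0.44 for 17 genes of the anaphase-promoting complex, -0.42 for 24 further kinetochore genes and for 26 spindle genes, -0.38 for 16 genes of mitotic entry and -0.21 for 7 cytokinesis genes. PDS5B and BORA lie on chromosome 13, where all 386 tested probes had a median difference of -0.77 and 16.3% were called lower. The other listed genes of that chromosome, CKAP2 and CDC16, lay at -1.0 and -0.82, and of the 52 genes only SKA3 lies there, at -0.58. KIF18A is on chromosome 11, where 1238 tested probes had a median difference of -0.27 and 4.93% were called lower. ANAPC16 is on chromosome 10, where 876 tested probes had a median of -0.17 and 3.42% were called lower. The part of the chromosome in these values was not tested.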

How the data were processed

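Total RNA of 3 A673/TR/empty and 3 A673/TR/LOX-PP samples was labelled with Cy3 and hybridised to Agilent SurePrint G3 arrays, 1 array each. The authors deposited scanner output from Agilent Feature Extraction 10.7 (per the submitters' processing notes), in which the processed signal is a background-corrected intensity, and a table of log2 values. That table, as deposited by the authors, equals log2 intensity less the array's 75th percentile and the median of the probe, within 0.05 for all 50528 probes with a value on every array, and served as an alternative.

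Control and outlier spots were left out, spots of a probe were averaged, and log2 of the processed signal less the array's 75th percentile was taken. The test took the 32609 probes with signal well above background on 3 or more of the 6 arrays and used limma 3.58.1 in R 4.3.3 (lmFit, eBayes, two-sided, Benjamini-Hochberg, threshold 0.05). The fit was tested on simulated data. Accessions named 28174 probes (55.7%) of 20503 genes through RefSeq gene names. The array's design uses another build than the RefSeq tables, so probe positions are not given, and the coordinates shown are those of the RefSeq promoters. The number of arrays limits the precision: the median 95% interval of the 52 genes was 0.57 log2 units to either side.

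The 52 genes, the marker and pathway lists and the rule for named genes were chosen with earlier results of these data known. Named with the value of every array are the genes past the threshold, the 5 largest further differences in each direction and a fixed panel of 20 well-known genes, 25 in all. From the pathway list, the genes past the threshold and the 3 largest differences either way are named. Alternatives were quantile, cyclic loess and median scaling, normexp (offset 50) on the median spot signal in place of the mean spot signal, the authors' table, other filters, the slide or the replicate number as a block, the methods' t-test, averaging a gene's probes, and each array left out. The methods' test was run on the same values.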

Additional observations from a re-analysis of the deposited data

How the results depend on the processing

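KIF18A was the only one of the 52 genes called under any of 18 settings, and 27 genes were negative and 2 positive under all of them. These settings are not 18 separate estimates of a difference. Median scaling, the authors' table, the replicate block and the methods' t-test gave the differences of the reported fit, up to rounding. The slide block gave those without LOX-PP replicate 1. The other filters moved every gene by the same amount. No mitosis gene and no pathway gene was called without the filter on dim probes (516 calls among all probes in place of 1848, with 50599 probes tested), with the replicate number as a block (893 calls) or by the methods' t-test after Benjamini-Hochberg (569 calls). Before adjustment that test gave 10 of the 52 genes at p under 0.05, against 19.7% of all probes. In these 3 settings KIF18A had adjusted p of 0.122, 0.103 and 0.0645. Over the fits that left out 1 array each, 407 to 2067 probes were called, 0 to 1 of the 52 genes and 0 to 2 of the pathway genes. The median of the 52 genes ranged from -0.34 to -0.12 and the genes below the median of all probes from 34 to 48. Without the filter the median was -0.41, and the median of all probes, 0.13 in the reported fit, was 0.30 there and -0.03 under quantile normalisation.

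Genes near 0 changed sign, none of them called. Quantile normalisation gave -0.0273 for CENPF, -0.12 for BIRC5, 0.25 for MKI67, 0.27 for TOP2A, 0.16 for PLK1, 0.0114 for AURKA, 0.17 for BUB1, 0.0243 for BUB1B and 0.0582 for TPX2. Cyclic loess gave 0.22 for MKI67, 0.24 for TOP2A, 0.0826 for PLK1 and 0.0385 for BUB1. Against probes of like signal, chosen after seeing the data, the values were -0.0395 for CENPF, -0.13 for BIRC5, 0.26 for MKI67, 0.26 for TOP2A, 0.13 for PLK1, 0.14 for BUB1, 0.0121 for BUB1B and 0.0389 for TPX2. Without the filter they were -0.0403 for INCENP, -0.0374 for CENPF, -0.0256 for BIRC5 and -0.17 for CDC20, and with normexp CDC20 was at -0.0782. With probes above background on all 6 arrays, MKI67 was at 0.0450 and TOP2A at 0.0547. With the slide as a block, which is the fit without LOX-PP replicate 1, INCENP was at -0.0641, CENPF at -0.0178, BIRC5 at -0.0715, CDC20 at -0.0580 and TOP2A at 0.41. With 1 array left out, the ranges were -0.0715 to 0.45 for BIRC5, -0.21 to 0.0345 for BUB1, -0.15 to 0.27 for CDC20, -0.0178 to 0.34 for CENPF, -0.0641 to 0.34 for INCENP, -0.52 to 0.36 for MKI67, -0.17 to 0.0293 for PLK1, -0.29 to 0.41 for TOP2A and -0.24 to 0.0160 for TPX2. The causes were not tested.

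The methods describe separate experiments with both kinds of cells, so arrays of the same replicate number may come from the same experiment. Over the tested probes, the deviations of such arrays had correlations of 0.27, -0.39 and 0.23, and empty replicate 2 correlated best with LOX-PP replicate 1. Deviations cancel out within each group, which forces the signs to mix, so these correlations cannot settle whether samples were paired. The reported fit did not pair them. With the replicate number as a block in limma, KIF18A had adjusted p of 0.103 and none of the 52 genes was called. Where 1 array is left out, its group holds 2.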
